A study of Mus musculus with 20 samples.

Results

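The skeletal muscle of a mouse hindlimb that received its dose at conventional dose rate was compared with sham-treated muscle, 70 days after treatment. The comparison holds 6 of the series' 20 RNA sequencing libraries, chosen by record title, with 3 titled as conventional irradiation (CONV) and 3 titled as not irradiated (sham). All mice were wild-type C57BL/6J. The CONV group received 35 Gy of electrons to the left hindlimb from the ElectronFlash linear accelerator in its conventional mode, and the sham group received no dose. Another muscle group of 4 libraries received the same 35 Gy at ultra-high dose rate (FLASH) and is used here for the spread between libraries and for reference values. RNA came from 10 to 15 mg of frozen muscle, and all 10 muscle libraries belong to batch 2. The labels name neither the muscle sampled nor the age and sex of the mice. Whether replicate numbers stand for different animals is not stated there, and the spread that the p-values rest on may be partly technical.

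In 5 muscle records the name of the deposited file points to a different record, and this changes which libraries are the controls. The files under sham records 2 and 3 are named as FLASH libraries, the files under FLASH records 2 and 3 are named as sham libraries, and the file under FLASH record 1 is named as another FLASH library. The 3 CONV files, sham 1 and FLASH 4 match their records. Results are therefore given for sham "by record" (sham 1, 2 and 3) and for sham "by file name" (sham 1, FLASH 2 and FLASH 3), and libraries are called by their records. Which assignment is right cannot be told from the labels.

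Late damage to irradiated muscle is known as a slow process of fibre loss, fibrosis and vessel injury. Skeletal muscle fibres come in fast, glycolytic kinds and slow, oxidative kinds, each with its own set of myosins, troponins and calcium pumps. Muscle is also the body's main source of glutamine, which glutamine synthetase makes from glutamate and ammonia. The hormone signals that drive muscle wasting, such as glucocorticoids, are known to raise this enzyme.

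The 6 libraries held 17760 to 18662 detected genes and 11121192 to 12245546 estimated counts, of which the 10 highest genes made up 60.01% to 65.1%. Levels are in CPM, the counts divided by library size after TMM scaling. Fast skeletal muscle markers were high in every library, with Ckm, muscle creatine kinase, at 4337 to 7951 CPM and Myh4, the fastest myosin heavy chain, at 25540 to 50100 CPM over the 6 libraries. Some libraries stood apart in genes of other cells or fibres. CONV 2 and CONV 3 were high in slow-fibre genes and CONV 1 was not. CONV 3 held 492 CPM of the haemoglobin gene Hba-a1, against 35.3 to 54.5 CPM in the other 5 libraries. The neutrophil genes S100a8 and S100a9 were at 1.69 and 2.90 CPM in CONV 2 and under 1 CPM in the other 5. The hair follicle keratin gene Krt71 was at 1.80 CPM in CONV 3 and at 0 in the other 5 (FLASH 4 held 12.2 CPM), and the epidermal keratin gene Krt5 was at 0.409 CPM in CONV 3 and at 0 in the other 5. In bulk tissue, fewer cells of a type and less RNA per cell cannot be told apart.

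Glul, the gene of glutamine synthetase, rose in CONV muscle under either assignment of the controls, and by record no other gene passed the test. Of 13080 genes tested with edgeR's quasi-likelihood test, 1 (0.00765%) had an adjusted p under 0.05 by record, and 1312 (10%) had an unadjusted p under 0.05. With the sham files taken by file name, 164 genes (1.25%) were called, 67 of them higher (0.512%) and 97 lower (0.742%) in CONV, and 2173 (16.6%) had an unadjusted p under 0.05. All 164 had the same direction by record, and 126 of them had an unadjusted p under 0.05 there. The 2 tests share the 3 CONV libraries and sham 1, so this overlap is a description. The median log2 change over all genes was 0.011 by record and 0.017 by file name, and the biological coefficient of variation was 0.173 and 0.159. Without TMM scaling the median of all genes was 0.133 by record and 0.172 by file name, so a list's direction is read against that shift, and lists whose median changes sign are named where they are described.

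**Figure D1:**
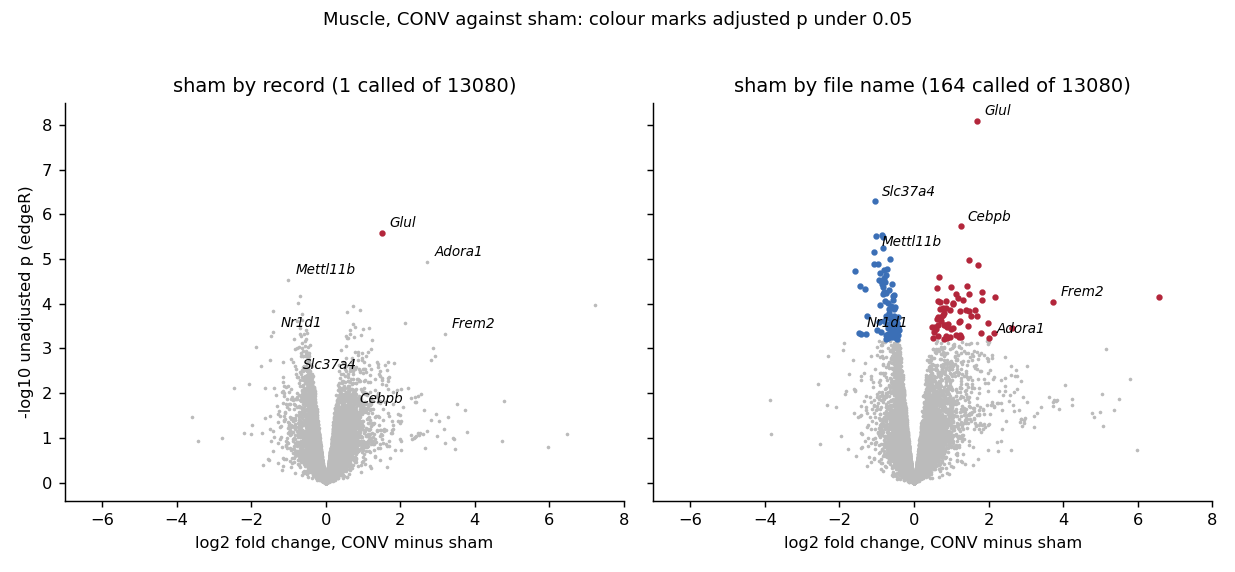
Each point is a gene of CONV against sham muscle, with the log2 fold change on the x axis and the negative log10 of edgeR's unadjusted p on the y axis, for sham by record (left) and by file name (right). Red and blue points are higher and lower genes with an adjusted p under 0.05: 1 gene on the left, which is Glul, and 164 on the right.

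Glul lies on chromosome 1, 153899944 to 153909723, plus strand of GRCm38 (mm10), as do all positions below, from GENCODE M21, and is protein coding. Its level was 81.5, 84.5 and 93.7 CPM in sham 1, 2 and 3, and 206, 292 and 239 CPM in CONV 1, 2 and 3. FLASH 1, 2, 3 and 4 held 101, 74.6, 72.6 and 120.2 CPM. The lowest CONV library thus lay above the highest of the other 7, and the groups did not overlap under either assignment. The means were 86.6 ± 6.38 CPM in sham and 246 ± 43.2 CPM in CONV (SD, n = 3 each), a log2 fold change of 1.51 ± 0.19 (± standard error) with an edgeR adjusted p of 0.0338. By file name the sham mean was 76.3 ± 4.65 CPM, with a log2 fold change of 1.69 ± 0.15 and an adjusted p of 0.000106. Glul-201, the full-length coding transcript, held 86.2% of the gene's TPM, a length-corrected level. It was at 38.5, 36.3 and 44.5 TPM in sham and at 115.6, 165.5 and 123.0 TPM in CONV. The 5′ end of Glul overlaps Teddm2 on the other strand. The libraries were made with a stranded kit, but whether the counting used strand is not given in the sources used here.

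The promoter window of Glul is shown because it is the gene called under either assignment, with those of Slc37a4 and Cebpb, the next genes by p when sham is taken by file name. Each window runs from 250 bases before to 50 after a RefSeq transcription start (build GRCm38.p6), 5′ to 3′ on the gene's strand. Of 67 genes described, 51 matched a RefSeq promoter. Slc37a4 has 3 such starts and the most upstream is shown. Capitals mark matches, on either strand, to the TATA box spelled TATAAA, to the CCAAT box, to the GC box spelled GGGCGG, to the E-box spelled CACGTG, to AGAACA, which is only a part of a glucocorticoid receptor site, and to the FoxO site spelled GTAAACA.
Glul chr1:153899679-153899978, plus strand: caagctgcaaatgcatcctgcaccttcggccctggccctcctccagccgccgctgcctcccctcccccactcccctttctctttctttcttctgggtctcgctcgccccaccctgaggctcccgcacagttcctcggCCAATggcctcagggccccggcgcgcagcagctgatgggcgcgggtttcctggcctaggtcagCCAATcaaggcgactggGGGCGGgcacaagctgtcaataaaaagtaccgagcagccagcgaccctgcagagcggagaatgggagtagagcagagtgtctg
Slc37a4 chr9:44396696-44396995, plus strand: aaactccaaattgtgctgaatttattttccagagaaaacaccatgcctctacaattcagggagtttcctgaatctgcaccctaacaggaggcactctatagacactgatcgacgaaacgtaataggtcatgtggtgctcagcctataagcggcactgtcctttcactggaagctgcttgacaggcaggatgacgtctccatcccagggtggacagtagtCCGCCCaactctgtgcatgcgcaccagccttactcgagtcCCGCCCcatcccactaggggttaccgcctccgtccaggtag
Cebpb chr2:167688665-167688964, plus strand: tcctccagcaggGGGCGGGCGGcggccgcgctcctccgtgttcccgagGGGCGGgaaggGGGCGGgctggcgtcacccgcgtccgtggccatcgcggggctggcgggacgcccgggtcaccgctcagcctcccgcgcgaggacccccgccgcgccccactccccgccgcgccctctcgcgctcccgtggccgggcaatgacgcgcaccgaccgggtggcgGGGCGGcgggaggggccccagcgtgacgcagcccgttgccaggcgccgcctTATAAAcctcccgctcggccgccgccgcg
Of all 32544 RefSeq promoter windows of that length, 13.6% hold the TATA box, 37.4% the CCAAT box, 35.9% the GC box, 7.17% the E-box, 18.9% the part of the glucocorticoid site and 3.66% the FoxO site, in these spellings. The Glul window has 2 CCAAT matches, 113 and 50 bases before the start, and 1 GGGCGG match 33 bases before it. Cebpb has 5 GGGCGG matches, 2 of which overlap, and 1 TATAAA match, which lies after the start. Slc37a4 has 2 matches to GGGCGG, both on the reverse strand. None of the 3 windows holds the letters AGAACA or GTAAACA, and bases outside the windows were not searched. A match describes these letters and is not a shown binding site.

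The genes that came next by record had separate groups but did not pass the test. Of the 13080 genes, 2017 (15.4%) had CONV and sham libraries that did not overlap by record, and 2686 (20.5%) by file name. Adora1, the adenosine A1 receptor gene (chromosome 1, 134199223 to 134235431, minus strand), was at 1.53, 0.254 and 0.628 CPM in the sham records, 4.404, 5.80 and 5.48 CPM in CONV and 1.80, 1.40, 0.921 and 1.91 CPM in FLASH. Every CONV library held more than the highest of the other 7. The log2 fold change was 2.72 ± 0.41 by record (adjusted p = 0.0754) and 2.01 ± 0.44 by file name (adjusted p = 0.0485), so the gene passed only by file name. Most of it came from transcript Adora1-202, at 0.42, 0 and 0 TPM in sham and 1.33, 1.77 and 1.57 TPM in CONV. Mettl11b, an N-terminal methyltransferase gene (chromosome 1, 163702256 to 163725232, minus strand), was at 10.6, 12.9 and 11.4 CPM in sham and 6.38, 4.91 and 6.13 CPM in CONV. All 3 CONV libraries lay below the lowest of the 4 FLASH libraries too, which held 9.30, 13.5, 12.4 and 10.9 CPM. Its log2 fold change was -1.004 ± 0.16 by record (adjusted p = 0.127) and -1.07 ± 0.16 by file name, where it fell (adjusted p = 0.0111). Frem2, which encodes an extracellular matrix protein (chromosome 3, 53513938 to 53657355, minus strand), was at 0.287, 0.509 and 0.448 CPM in sham and at 0.899, 5.72 and 4.99 CPM in CONV. CONV 1 was near the highest FLASH library, FLASH 1 at 0.859 CPM, and CONV 2 and 3 were far higher. The log2 fold change of Frem2 was 3.19 ± 0.66 by record (adjusted p = 0.222) and 3.73 ± 0.66 by file name (adjusted p = 0.0232).

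**Figure D2:**
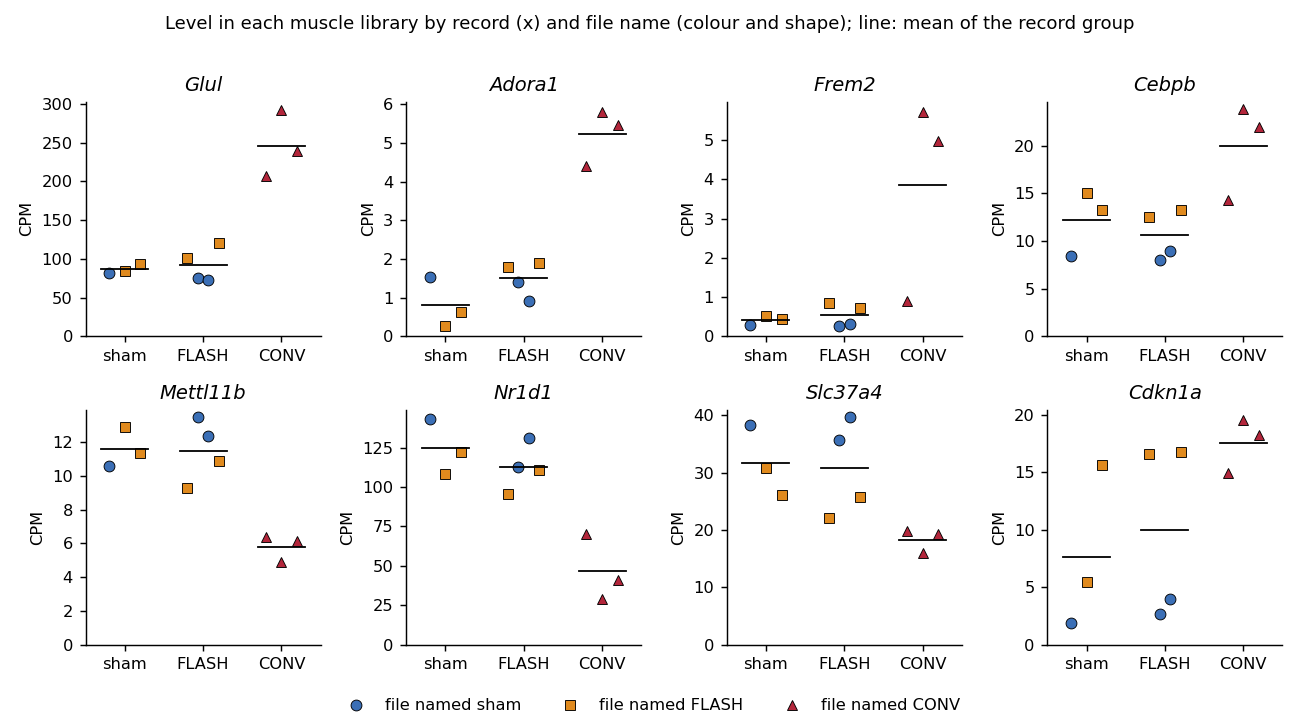
CPM (y axis) of 8 genes in each of the 10 muscle libraries, placed by record group on the x axis and coloured and shaped by the group in the file name, with a line at the mean of the record group. CONV libraries are separate from all others for Glul (206 CPM and above against 120.2 CPM and below), while for Cdkn1a 3 libraries of the sham and FLASH records, all named FLASH, lie in the CONV range.

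By record, the other protein-coding genes of smallest p with separate groups all had adjusted p-values of 0.199 to 0.222 in edgeR. Higher in CONV were Sned1 (log2 fold change 0.74), B3galt2, a galactosyltransferase gene (0.91), Pcnt, the centrosome protein pericentrin (0.59), Ccl19, a chemokine gene (2.13), Nrip1, a nuclear receptor corepressor (0.74), Tecpr2 (0.80), Ddt (1.01) and Slc35e2 (0.64). Of the Ccl19 TPM, 89% came from Ccl19-202, a processed transcript that is not annotated as coding. The coding transcript Ccl19-203 was at 0, 0 and 0 TPM in sham and 0.538, 0 and 1.43 TPM in CONV. Lower in CONV were Fhl3 (-0.68), Adgrl1, an adhesion receptor gene (-0.75), Ccrl2 (-1.42), Rabgef1 (-0.63), Ssx2ip (-0.64), Castor2, an arginine sensor (-0.69), Lrrc14b (-0.51) and Pik3cd (-0.68). Mylk2, the kinase of the skeletal muscle myosin light chain, was at 395, 458 and 444 CPM in sham and 274, 248 and 240.3 CPM in CONV. The CONV libraries were the lowest of all 10, since FLASH held 324, 391, 525 and 436 CPM. The log2 fold change of Mylk2 was -0.77 ± 0.16 by record (adjusted p = 0.222) and -0.78 ± 0.15 by file name, where it fell (adjusted p = 0.0232). By file name, Pcnt, Nrip1, Tecpr2 and Ddt rose and Adgrl1, Ccrl2 and Pik3cd fell, with adjusted p-values of 0.0104 to 0.0449. The others of these genes did not pass there.

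The genes of smallest p by file name, named after their values were seen, were led after Glul by Slc37a4, the transporter of glucose-6-phosphate into the endoplasmic reticulum (chromosome 9, 44396852 to 44402968, plus strand). Slc37a4 was at 38.3, 35.7 and 39.8 CPM in the files named sham and 19.8, 16.0 and 19.2 CPM in CONV, with no overlap, and fell by 1.05 on the log2 scale by file name (adjusted p = 0.00333). The 4 files named FLASH held 30.9, 22.1, 26.1 and 25.7 CPM, between the files named sham and CONV. By record its log2 fold change was -0.79 ± 0.22 (adjusted p = 0.323). Cebpb, a transcription factor of the C/EBP family (chromosome 2, 167688915 to 167690418, plus strand), was at 8.41, 8.02 and 8.90 CPM in the files named sham and 14.3, 23.8 and 21.9 CPM in CONV. It rose by 1.25 ± 0.16 by file name (adjusted p = 0.00705), and CONV 1 lay within the range of the files named FLASH. By record Cebpb had a log2 fold change of 0.71 ± 0.26 (adjusted p = 0.428), where sham 2 and sham 3 held 15.0 and 13.3 CPM. Sms, the spermine synthase gene, fell by 0.86 by file name (adjusted p = 0.00705), from 63.5 ± 0.984 to 35.1 ± 4.46 CPM. Dyrk2, a kinase gene that acts on p53, fell by 0.83 (adjusted p = 0.00705). Among the other genes of smallest p, Pdp2, a phosphatase that activates pyruvate dehydrogenase, rose by 1.47 (adjusted p = 0.0136), Gas6, a ligand of the TAM receptors, by 0.68 (0.0173) and the endothelin receptor gene Ednrb by 1.19 (0.0228), all by file name.

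Of 26 tested genes of glutamine and ammonia metabolism, 1 was called by record (Glul), and 15 were higher with a median log2 change of 0.14, against 0.011 over all genes. By file name 2 were called, Glul and Slc38a1, against 1.25% of all genes. Slc38a1, a glutamine importer, was at 2.87, 2.96 and 2.56 CPM in the files named sham and 4.67, 5.72 and 5.07 CPM in CONV. Slc38a1 rose by 0.88 ± 0.19 there (adjusted p = 0.0388), and its groups did not overlap by record either (0.64 ± 0.21, adjusted p = 0.373). Glud1, glutamate dehydrogenase, had a log2 fold change of -0.25 ± 0.11 by record (adjusted p = 0.477), and the glutamate importer Slc1a3 one of 1.68 ± 0.50 (adjusted p = 0.34), with 1.15, 0.424 and 1.08 CPM in sham and 4.14, 1.21 and 3.19 CPM in CONV. Of the 19 tested genes of adenosine and purine signalling, Adora1 was called by file name and none by record, and the median log2 change was 0.14 by record and 0.33 by file name. The ecto-enzymes that make adenosine outside the cell, Entpd1 (0.47 ± 0.25) and Nt5e (0.67 ± 0.38), and adenosine kinase, Adk (0.08 ± 0.21), did not pass by record or by file name.

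Nr1d1, the clock repressor REV-ERBα (chromosome 11, 98767932 to 98775333, minus strand), had the most negative change of the clock genes. It was at 143, 109 and 123 CPM in sham, 95.7, 113, 131 and 111 CPM in FLASH and 70.3, 29.1 and 41.2 CPM in CONV, so that every CONV library lay below the other 7. The log2 fold change was -1.41 ± 0.27 by record (adjusted p = 0.222) and -1.46 ± 0.27 by file name, where it fell (adjusted p = 0.0435). Per2, another clock gene, was at 9.94, 7.04 and 8.43 CPM in sham and 16.7, 13.3 and 20.9 CPM in CONV. The groups did not overlap, but Per2 did not pass (log2 fold change 1.00 ± 0.26, adjusted p = 0.307 by record and 0.0652 by file name). Bhlhe41, a repressor of the clock, fell by 0.76 by file name (adjusted p = 0.0164). By record its groups overlapped, at 75.8, 47.7 and 49.2 CPM in sham and 49.2, 40.9 and 38.7 CPM in CONV. The core activators did not pass: Arntl was at -0.16 ± 0.22 and Clock at -0.35 ± 0.13 on the log2 scale by record. Of 21 clock genes tested, 15 were lower by record and 16 by file name, with medians of -0.14 and -0.22, and 0 and 2 were called by edgeR. Over all genes 0.00765% and 1.25% were called. The time of day at which tissue was taken is not given in the labels, and its part in these values was not tested.

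Of 32 tested genes of the glucocorticoid and FoxO response, 20 were higher by record (median 0.14) and 21 by file name (median 0.20). There were 0 called by record and 3 by file name, against 0.00765% and 1.25% of all genes. An unadjusted p under 0.05 was found for 12 of the 32 by record and 12 by file name, against 10% and 16.6% of all genes. The ubiquitin ligase genes Fbxo32 and Trim63, known markers of atrophy, had lower means in CONV. Fbxo32 (atrogin-1) was at 376, 388 and 344 CPM in sham and 374, 167 and 257 CPM in CONV (-0.48 ± 0.23, adjusted p = 0.532 by record). Trim63 (MuRF1) was at 121, 124 and 122 CPM in sham and 105, 70.0 and 88.7 CPM in CONV (-0.48 ± 0.15, adjusted p = 0.369). The Trim63 groups did not overlap by record, and those of Fbxo32 did. For both genes CONV 1 was the highest of the CONV libraries and CONV 2 the lowest. The 3 genes that rose by file name were Zbtb16, a glucocorticoid-induced transcription factor (0.77 ± 0.15, adjusted p = 0.0331), Cblb, a ubiquitin ligase of unloading (0.65 ± 0.14, 0.0376) and Gadd45a, which is induced by denervation and DNA damage (1.05 ± 0.23, 0.0394). Gadd45a was at 7.37, 7.24 and 7.28 CPM in CONV and 3.63, 2.70 and 4.30 CPM in the files named sham. Among the sham records, sham 2 held 6.70 CPM, near the CONV level. The glucocorticoid targets Fkbp5 (0.68 ± 0.28) and Tsc22d3 (0.22 ± 0.13) did not pass under either assignment. The metallothionein gene Mt2 (2.43 ± 0.82) did not pass either, with 1.05, 0.424 and 0.897 CPM in sham and 3.78, 8.13 and 0.818 CPM in CONV, where CONV 3 was within the sham range.

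Slow-fibre genes were in sum higher in CONV 2 and CONV 3 than in the other 8 libraries, CONV 1 among them. FLASH 1 came next. Summed over the 19 genes of the slow-fibre list, the level was 389, 617 and 1186 CPM in sham, 384, 6861 and 3163 CPM in CONV and 1932, 492, 514 and 807 CPM in FLASH. In this sum CONV 1 was the lowest of the 10 libraries and CONV 2 the highest, and the groups overlapped. By the mean log2 CPM of the list FLASH 3 was the lowest, at 1.68 against 2.57 in CONV 1, and CONV 2 the highest at 7.13. Of the 19 genes, 18 were higher by record with a median log2 change of 2.62, and 19 by file name with a median of 3.75. edgeR called 0 under either assignment. An unadjusted p under 0.05 was found for 2 of the 19 by record and 14 by file name, against 10% and 16.6% of all genes. Myh7, the slow myosin heavy chain, was at 40.7, 3.99 and 227 CPM in sham and 12.1, 2159 and 816 CPM in CONV (log2 fold change 3.46 ± 2.29, adjusted p = 0.656 by record and 0.308 by file name). In TPM, Myh7 was at 4.25, 674 and 237 in CONV against 11240, 6570 and 7407 for the fast myosin Myh4 in the same libraries, so fast myosin remained the more abundant in each. Atp2a2, the calcium pump of slow fibres, followed the same order, at 32.4, 18.1 and 115 CPM in sham and 35.7, 983 and 466 CPM in CONV. Sln, sarcolipin, which inhibits such pumps, was at 0.669, 0.170 and 0.448 CPM in sham and 1.17, 31.2 and 3.19 CPM in CONV and had the smallest p of the list by record (4.79 ± 1.53, adjusted p = 0.394). Myh2, the myosin of fast oxidative fibres, was at 279.5, 291 and 885 CPM in sham and 338, 2723 and 2868 CPM in CONV, again with CONV 1 near sham 1 and 2. Whether the libraries differ in the part of the limb or the muscle sampled was not tested.

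Most fast-fibre genes had lower mean values in CONV, by smaller amounts. Of 18 genes tested, 17 were lower in CONV under either assignment, with medians of -0.31 by record and -0.41 by file name. The summed level was 110600, 85860 and 82170 CPM in sham and 93010, 65580 and 75100 CPM in CONV. By record the sums overlapped, since CONV 1 lay above sham 2 and sham 3. Of the 18 genes, 3 had an unadjusted p under 0.05 by record and 14 by file name in edgeR. Casq1, the calcium store protein of fast fibres, fell by 0.68 by file name (adjusted p = 0.0336) and was the only one called, with 1182, 1131 and 1006 CPM in the files named sham and 826, 568 and 683 CPM in CONV. By record Casq1 overlapped between groups, at 1182, 825 and 839.6 CPM in sham (-0.46 ± 0.21, adjusted p = 0.49). Pfkm, muscle phosphofructokinase, was at 1481, 1496 and 1483 CPM in sham and 1150, 1018 and 929.9 CPM in CONV, below every sham and FLASH library, but did not pass (-0.53 ± 0.13, adjusted p = 0.267 by record and 0.0537 by file name). Eno3, muscle enolase, fell by 0.51 by file name (adjusted p = 0.0467). It was the only called gene of the 31 glycolysis and glycogen genes tested, of which 20 were lower under either assignment. Myh4 itself did not pass (-0.26 ± 0.21 by record), and its CONV libraries, at 42440, 25540 and 31030 CPM, overlapped the sham libraries.

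**Figure D3:**
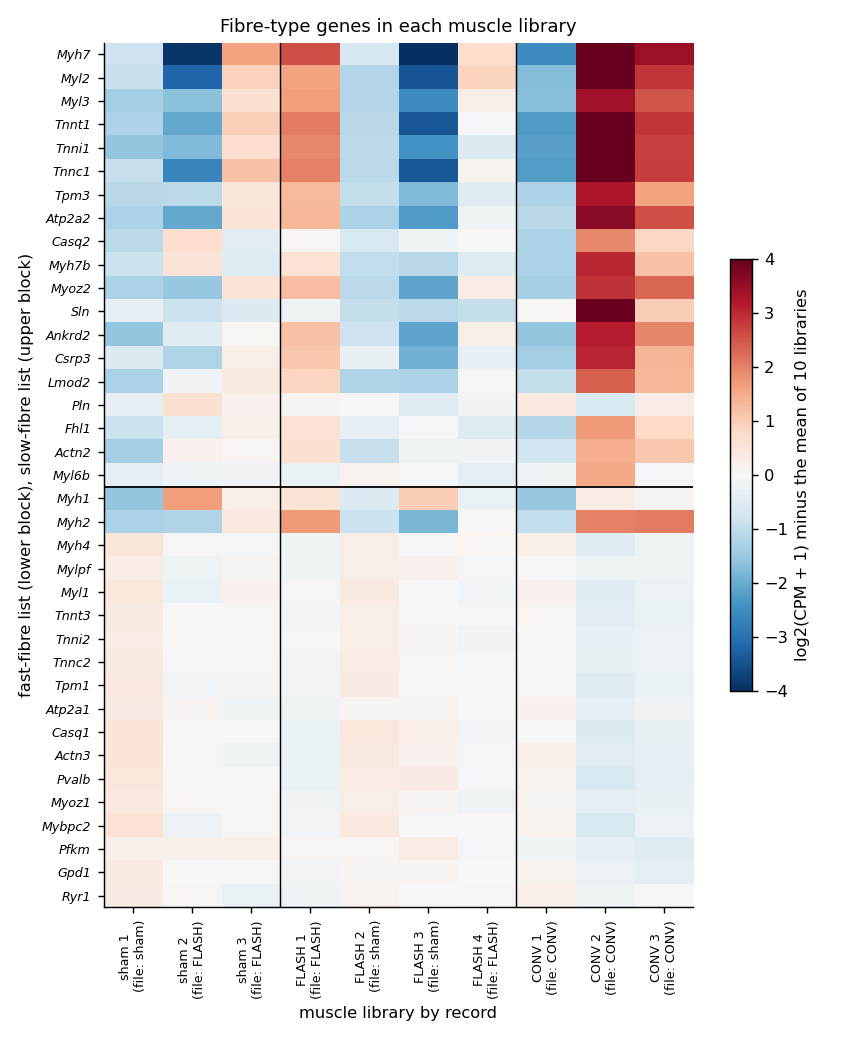
Rows are the slow-fibre genes (upper block) and fast-fibre genes (lower block), columns are the 10 muscle libraries by record with the group in the file name, and colour is log2(CPM + 1) minus the gene's mean over the 10 libraries, cut at 4 on either side. The slow-fibre block is red in CONV 2 and CONV 3 and blue in CONV 1, with FLASH 1 and sham 3 intermediate.

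Most stretch and chaperone genes had higher values in CONV, and 1 of them passed, by file name. Of the 15 tested stretch and stress genes 13 were higher by record (median 1.14), with 0 called under either assignment by edgeR. An unadjusted p under 0.05 was found for 4 by record and 8 by file name, against 10% and 16.6% of all genes. The summed level of the list was 5329, 5087 and 5241 CPM in sham and 5014, 8292 and 5570 CPM in CONV. CONV 1 thus lay below all 3 sham libraries and CONV 2 stood far above the rest. Cryab, the small heat shock protein αB-crystallin, was at 90.7, 110.2 and 112 CPM in sham and 157, 386 and 308 CPM in CONV. The groups did not overlap, but FLASH 1 at 183 CPM exceeded CONV 1 (1.44 ± 0.37, adjusted p = 0.323 by record and 0.0593 by file name). Xirp1, a marker of fibre repair, was at 442 CPM in CONV 2 and at 54.0 and 69.1 CPM in CONV 1 and 3, close to the sham libraries at 54.4 to 75.8 CPM. Of 20 chaperone and unfolded protein genes tested, 17 were higher by record (median 0.22) and 18 by file name (median 0.29). Hsp90aa1, an inducible HSP90 gene, rose by file name (0.66 ± 0.13, adjusted p = 0.0331), from 17.0, 15.4 and 15.7 CPM to 28.3, 26.2 and 21.3 CPM. The inducible HSP70 gene Hspa1b was at 1.72, 1.70 and 1.79 CPM in sham and 6.29, 24.3 and 6.54 CPM in CONV, above all 7 other libraries, and did not pass (2.83 ± 0.63, adjusted p = 0.29 by record and 0.0848 by file name). It is a near copy of Hspa1a, so the split of reads between these genes is uncertain. Hmox1, haem oxygenase 1, rose by file name (1.21 ± 0.28, adjusted p = 0.0467), from 1.53, 2.35 and 1.43 CPM to 3.15, 5.39 and 3.84 CPM. Beside these genes, the summed haemoglobin and erythroid list was 129, 155 and 125 CPM in sham and 129, 217 and 1752 CPM in CONV, and its part was not tested.

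Cdkn1a, the p53-induced inhibitor of the cell cycle (chromosome 17, 29090976 to 29100727, plus strand), passed or did not pass with the choice of controls. It was at 1.91, 5.43 and 15.6 CPM in sham 1, 2 and 3 and 14.9, 19.6 and 18.2 CPM in CONV, so that sham 3 lay within the CONV range and the groups overlapped by record (1.20 ± 0.86, adjusted p = 0.689). The files named sham held 1.91, 2.62 and 3.99 CPM, all below CONV, and by file name Cdkn1a rose by 2.64 ± 0.45 (adjusted p = 0.0389). FLASH 1 and FLASH 4 held 16.6 and 16.8 CPM, in the CONV range. Of the other p53 targets, Trp53inp1 rose by file name (0.70 ± 0.13, adjusted p = 0.0232), with 13.9, 13.6 and 13.9 CPM in CONV against 7.17, 9.24 and 9.004 CPM. Its coding transcript Trp53inp1-201 held 36.4% of the gene's TPM, and transcripts annotated as processed held most of the rest. Trp53inp1-201 overlapped, at 0.858, 1.64 and 0.677 TPM in the files named sham and 2.025e-07, 2.17 and 2.44 TPM in CONV. Mdm2 (0.06 ± 0.14), Ccng1 (0.05 ± 0.14) and Bax (0.37 ± 0.24) did not pass by record or by file name. In all 14 of 19 tested p53 targets were higher by record (median 0.19) and 16 by file name (median 0.28). In edgeR, 0 of the 19 had an unadjusted p under 0.05 by record and 8 by file name, against 10% and 16.6% of all genes. Of 23 DNA repair genes tested, 7 were higher by record and 6 by file name, and of 11 tested proliferation genes 5 and 6, with none called in either list. Without scaling the median of the DNA repair list went from -0.11 to 0.01 by record and from -0.13 to 0.02 by file name, and that of the proliferation list from -0.03 to 0.09 by record.

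All 16 tested macrophage markers had positive log2 changes under either assignment, with medians of 0.54 by record and 0.95 by file name, and edgeR called 0 and 2. Over all genes 0.00765% and 1.25% were called. Among the 16 markers, 1 had an unadjusted p under 0.05 by record and 7 by file name in edgeR, against 10% and 16.6% of all genes. Summed over the 18 genes of the list, sham 1, 2 and 3 held 34.8, 69.3 and 96.2 CPM and CONV 1, 2 and 3 held 92.6, 109 and 79.9 CPM, so the groups overlapped by record. FLASH 2 and 3, whose files are named sham, held 75.4 and 38.8 CPM and FLASH 1 and 4 held 103 and 107 CPM, so that 3 of the 4 libraries named FLASH lay in the CONV range. Cd68, a lysosomal protein of macrophages, was at 0.669, 0.872 and 0.307 CPM in the files named sham and 2.34, 2.01 and 2.37 CPM in CONV and rose there (1.82 ± 0.34, adjusted p = 0.0232). The complement gene C1qc rose likewise (1.47 ± 0.29, adjusted p = 0.0288). By record neither passed, at 0.68 ± 0.51 and 0.60 ± 0.55. C3ar1, a complement receptor, Itgb2, a leukocyte integrin, and Laptm5, a leukocyte lysosome gene, were further genes called by file name, named after their values were seen, at 2.14 ± 0.48, 1.80 ± 0.40 and 1.49 ± 0.27. Of 28 genes of the interferon response and antigen presentation, 24 were higher by record (median 0.32) and 27 by file name (median 0.59). H2-Eb1, an MHC class II gene, was the only one called (1.23 ± 0.25, adjusted p = 0.0351 by file name). Of these 28 genes, 2 had an unadjusted p under 0.05 by record and 14 by file name in edgeR. The 21 neutrophil genes summed to 7.37, 13.8 and 6.71 CPM in CONV and 3.44, 4.92 and 4.84 CPM in sham, and 2 of them could be tested. Of 18 lymphocyte markers 2 could be tested, and no member of either list was called.

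Of 35 collagen and matrix genes tested, 16 were higher under either assignment, with medians of -0.11 by record and -0.13 by file name, and 0 and 1 were called. Their summed level was 1342, 1357 and 1188 CPM in CONV, 1107, 1206 and 1950 CPM in the sham records and 1107, 1985 and 1275 CPM in the files named sham, so the groups overlapped. Without scaling the median by file name was 0.02. The gene called was Postn, periostin, a matrix protein of wound repair. It was at 1.91, 2.53 and 2.05 CPM in the files named sham and 7.37, 11.2 and 7.20 CPM in CONV and rose by 1.98 ± 0.38 (adjusted p = 0.0365), while sham 3 by record held 8.61 CPM. Of 25 tested TGF-β pathway genes, 17 were lower under either assignment, with a median of -0.09 by record that was 0.02 without scaling. Smad3, which carries the TGF-β signal, fell by 0.59 by file name (adjusted p = 0.0336). It was also separate by record, at 46.6, 51.1 and 45.7 CPM in sham and 35.3, 29.1 and 35.1 CPM in CONV (-0.53 ± 0.13, adjusted p = 0.267). Bmpr1a, a BMP receptor gene, fell by 0.44 by file name (adjusted p = 0.0449), but on log2(TPM + 1) by record its change was 0.095, in the other direction. Fibroblast markers were lower in 12 of 16 tested genes by record and 9 by file name, with none called, and their median by file name went from -0.08 to 0.07 without scaling. Endothelial markers had medians of -0.06 by record (0.06 without scaling) and 0.17 by file name. The endothelial adhesion gene Pecam1 rose by file name (0.59 ± 0.13, adjusted p = 0.0395). Of 17 tested satellite cell and myogenic genes, 13 were lower by record and 12 by file name, and none was called.

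Genes of the neuromuscular junction and of denervation were higher in 17 of 21 tested cases by record (median 0.27) and 18 by file name (median 0.37), and Gadd45a, also counted among the wasting genes, was the only one called. Chrna1, the muscle acetylcholine receptor α subunit, was at 4.87, 6.11 and 2.51 CPM in sham and 7.10, 9.26 and 6.46 CPM in CONV, separate but not past the test (0.76 ± 0.27, adjusted p = 0.397 by record and 0.114 by file name). Dok7, an activator of the receptor kinase MuSK, was at 3.92, 4.32 and 4.22 CPM in sham and 5.30, 11.3 and 7.69 CPM in CONV (0.96 ± 0.24, adjusted p = 0.267 by record), and FLASH held 4.61, 5.67, 6.55 and 5.17 CPM. Scn4a, the sodium channel of the fibre membrane, did not pass (-0.20 ± 0.15 by record).

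Most lipid genes had higher values in CONV. Of 34 genes of fatty acid uptake and oxidation tested, 31 were higher by record (median 0.23, 0 called) and 33 by file name (median 0.57, 3 called, against 1.25% of all genes). In edgeR, 0 of the 34 had an unadjusted p under 0.05 by record and 18 by file name, against 10% and 16.6% of all genes. The summed level of the list was 1364, 2632 and 1813 CPM in sham and 1923, 2703 and 2701 CPM in CONV. By record the groups overlapped, since sham 2 lay above CONV 1 and close to CONV 2 and 3. The files named sham held 1364, 1212 and 1531 CPM, all below CONV. The 3 that rose by file name were Ucp2, an uncoupling protein (1.73 ± 0.26, adjusted p = 0.0138), Plin5, a lipid droplet protein (1.82 ± 0.32, 0.0208) and Slc27a1, a fatty acid importer (0.82 ± 0.17, 0.0376). Ucp2 was at 3.15, 4.10 and 3.17 CPM in the files named sham, 8.63, 16.2 and 9.89 CPM in CONV and 6.19, 9.37, 7.62 and 9.89 CPM in the files named FLASH, so the named groups of FLASH and CONV overlapped. Pdk4, which blocks pyruvate entry into mitochondria, was at 205, 76.6 and 117 CPM in the files named sham and 535, 386 and 356 CPM in CONV, and did not pass (1.68 ± 0.35, adjusted p = 0.0601). By record it overlapped, at 205, 487 and 353 CPM in sham (0.29 ± 0.75). Plin4, a lipid droplet gene of fat and muscle, was separate under either assignment, at 65.0, 50.9 and 52.9 CPM in sham and 101, 159 and 109.8 CPM in CONV. It rose by file name (1.24 ± 0.24, adjusted p = 0.0449) and did not pass by record (1.13 ± 0.25, adjusted p = 0.267). Beside these genes, the summed adipocyte markers were 486, 379 and 446 CPM in sham, 486, 531 and 245 CPM in the files named sham and 503, 680.1 and 883 CPM in CONV, and Adipoq, which fat cells secrete, was at 5.45, 1.02 and 4.31 CPM in sham and 9.26, 2.58 and 6.95 CPM in CONV. Their part in the lipid values was not tested. All 13 mitochondrially encoded respiratory genes had lower values under either assignment (11 of 13 by file name without scaling), with medians of -0.40 by record and -0.20 by file name, and none was called. Their summed level was 63740, 112500 and 76110 CPM in sham and 61220, 61220 and 67940 CPM in CONV. The groups thus overlapped by record, and sham 2 was far above the rest. The files named sham held 63740, 61190 and 92250 CPM and overlapped CONV too. The 30 nuclear respiratory genes had medians of -0.09 and 0.04, with 25 lower by record and 7 by file name, and without scaling the median by record was 0.03.

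**Figure D4:**
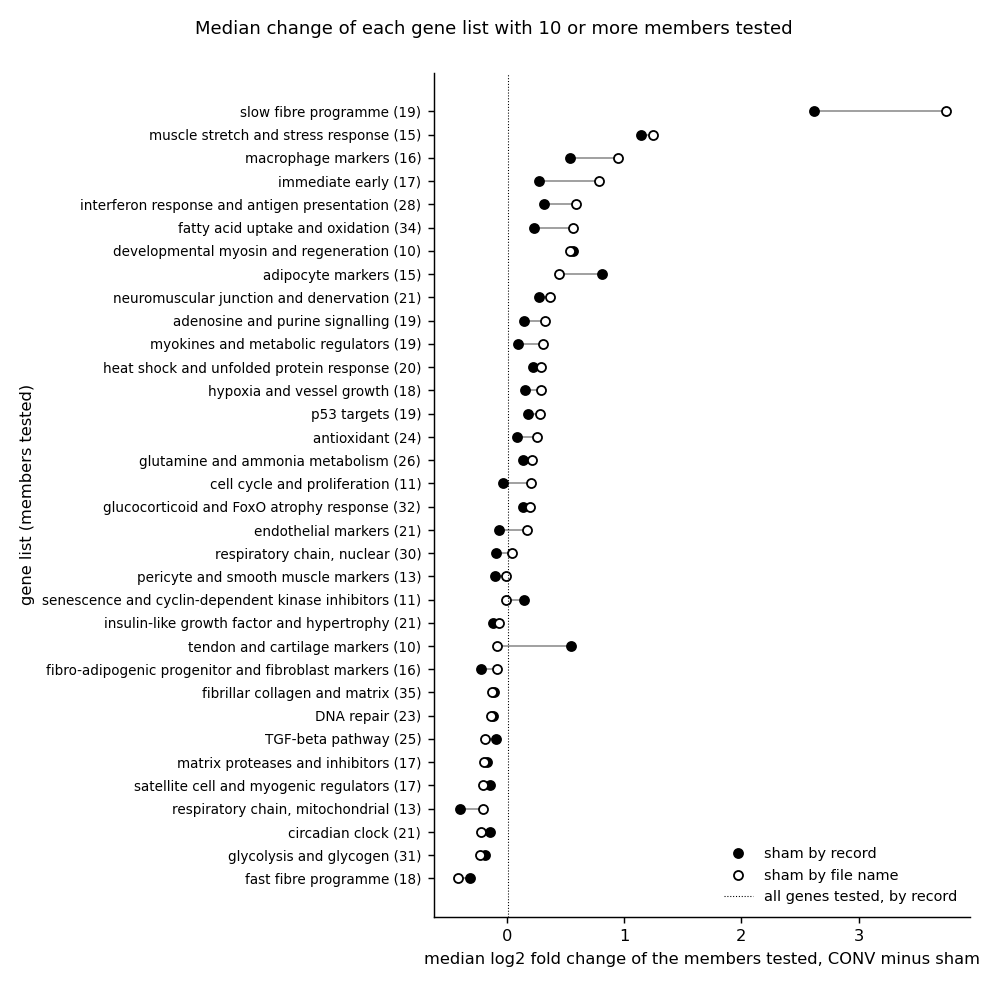
Median log2 fold change (x axis) of CONV against sham muscle for each gene list with 10 or more tested members (y axis, number tested in parentheses), by record (filled) and by file name (open). The dotted line marks the median of all genes by record, 0.011. The slow-fibre list lies farthest out, at 2.62 and 3.75, and the fast-fibre list is lowest by file name at -0.41.

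Over all lists, 674 different genes were tested and 27 of them were called by file name, against the 1.25% of all genes. By record 1 was called, Glul. The lists overlap in members and were chosen with earlier results of these data known. The 27 of 674 is thus not a test of any list, nor of the lists against all genes.

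Against FLASH muscle, Glul was again the only gene past the threshold, with 1 of 13080 genes (0.00765%) called by record and by file name and 1086 (8.3%) and 1114 (8.52%) at an unadjusted p under 0.05. This comparison shares the CONV libraries with the one above. Its log2 fold change of CONV over FLASH was 1.42 ± 0.17 by record (adjusted p = 0.024) and 1.30 ± 0.13 by file name (adjusted p = 0.00087). Adora1 (1.78 ± 0.34, adjusted p = 0.206 by record), Mettl11b (-0.99 ± 0.16, 0.0877) and Nr1d1 (-1.26 ± 0.26, 0.24) had the same direction against FLASH as against sham and did not pass. Cdkn1a did not pass against FLASH, at 0.80 ± 0.77 by record (adjusted p = 0.811) and 0.37 ± 0.35 by file name (adjusted p = 0.816). FLASH against sham gave 0 calls in edgeR under either assignment, with 327 (2.5%) and 1293 (9.89%) of the genes at an unadjusted p under 0.05. The same CONV exposure was also compared between tissues, as the muscle response minus the skin response over all 20 libraries. By record 0 of 19199 genes passed in edgeR (2737 at an unadjusted p under 0.05), and by file name 154 passed (0.802%), 52 with the higher response in muscle (0.271%) and 102 with the lower (0.531%). Each response lies within 1 batch, since all skin is batch 1. By record the skin change of Glul was -0.03 ± 0.28, and the muscle minus skin response was 1.497 ± 0.39 (adjusted p = 0.165).

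How many genes passed turned on single libraries. Without CONV 1 the count was 29 by record and 642 by file name, and without CONV 2 or CONV 3 it was 0 by record and 35 or 19 by file name. By record the count was 0 also without sham 2, sham 3 or FLASH 1, it was 2 without FLASH 2 (Glul and the pseudogene Rpl14-ps1), and without sham 1 the gene called was Adora1 in place of Glul. By file name it was 12, 39 and 31 without the file of sham 1, FLASH 2 and FLASH 3. Glul by file name passed in each of these 6 fits and in all 12 alternatives computed, at log2 fold changes of 1.43 to 1.79. By record it passed in 14 of 25 alternatives, at log2 fold changes of 1.25 to 1.69. These 25 count the file-name assignment itself, which passed and gave the upper end of 1.69. With CONV 1 as the only CONV library, a fit that takes the spread from the other groups and assumes that CONV 1 varies like them, Glul had a log2 fold change of 1.25 by record (adjusted p = 0.674) and 1.43 by file name (adjusted p = 0.0065). With the slow-fibre score as a covariate it was 1.27 (adjusted p = 0.0204) and 1.43 (adjusted p = 0.00211). In the latter fit Nr1d1 was called beside Glul by record, and Glul alone by file name. These 2 alternatives were added after the data were seen, and the part of fibre makeup in the Glul values was not tested.

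**Figure D5:**
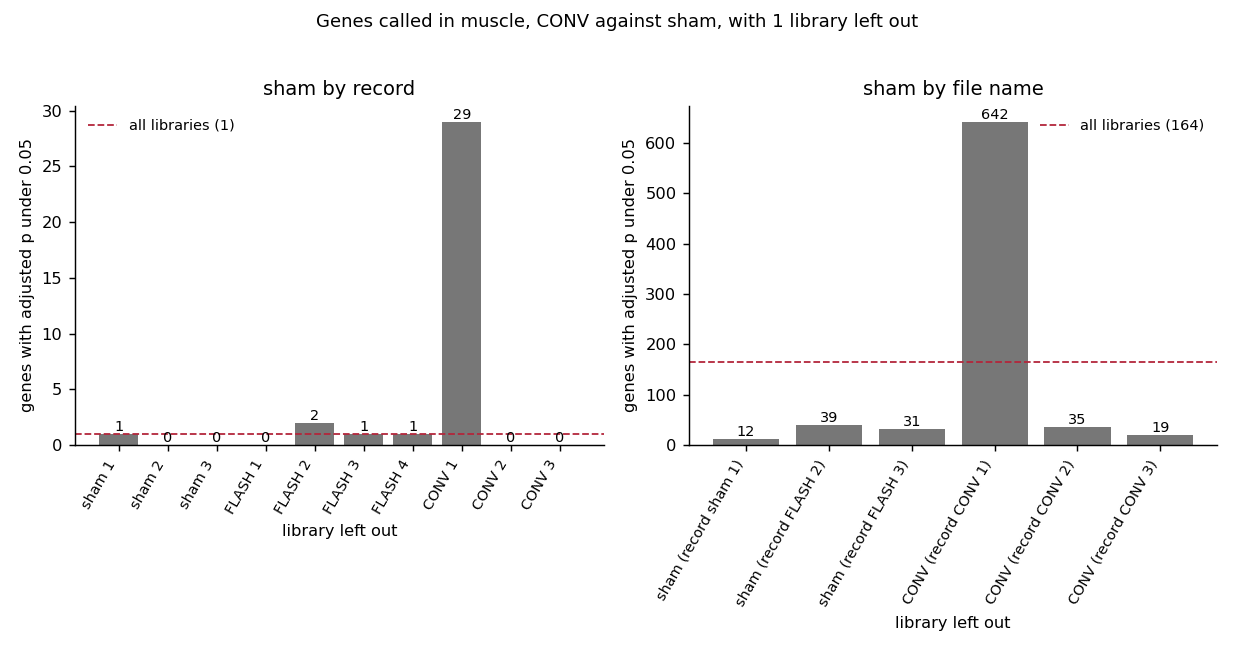
Bars give the number of genes with an edgeR adjusted p under 0.05 (y axis) when 1 muscle library (x axis) is left out, for sham by record (left) and by file name (right, with the record that holds the file), and the dashed line is the count with all libraries. Leaving out CONV 1 gave the highest count in either panel, 29 and 642.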

How the data were processed

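Each of the 20 files holds 1 library, with an estimated count and a TPM per transcript from kallisto, run by the authors on mm10 (both named in the submitters' processing notes). The transcript release and the strand setting are not given in the sources used here. The libraries come from a stranded total RNA kit with ribosomal RNA removal, per the labels. Here the deposited estimated counts were summed to 35579 genes by transcript identifier without version in GENCODE M21 (98.45% of 116116 transcripts matched; unmatched ones held 1.58% to 1.78% of the counts of a muscle library) and rounded. kallisto divides shared reads, so near-identical copies are uncertain, and PCR copies are not separate molecules. The 10 muscle libraries were fitted in 3 groups with edgeR 4.0.16 (R 4.3.3; TMM, filterByExpr, robust quasi-likelihood), with p-values adjusted by Benjamini-Hochberg over 13080 genes and called under 0.05. The fit was also run on counts simulated with the same change in all CONV libraries and with groups by record. That check does not cover unlike CONV libraries or the disagreeing file names. limma 3.58.1 and DESeq2 1.42.0 served as alternatives, as did other scalings, filters, the replicate block and leaving out libraries. Standard errors are the log2 change over the square root of F. No pair of muscle replicates agreed within sampling noise (chi-square 7.78 to 42.5 per degree of freedom). Named genes are protein-coding genes with groups that do not overlap and a mean of at least 1 CPM in the higher group: those past the threshold and, since fewer than 10 passed, those of smallest p, up to 12 each way, with called members of 42 gene lists (858 entries), the first members of lists, and 15 each way named by file name after their values were seen. Those on chromosome 18 are not described. The groups and lists were chosen with earlier results of these data known.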

Additional observations from a re-analysis of the deposited data

Results flagged for a closer look

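With the files assigned by file name in either tissue, 9 genes, all but Ift81 named above, responded to CONV differently in muscle and skin, by a test of the difference itself (interaction term in edgeR over 20 libraries, with 154 of 19199 genes called). By record none of them passed. On the log2 scale, with standard errors, the muscle response minus the skin response was 1.81 ± 0.35 for Glul (adjusted p = 0.0381), 1.55 ± 0.24 for B3galt2 (0.0272), 0.86 ± 0.19 for Slc38a1 (0.0467) and 1.23 ± 0.24 for Trp53inp1 (0.041). It was 3.38 ± 0.63 for Plin4 (0.0381), 2.03 ± 0.41 for Plin5 (0.0414), 5.27 ± 1.10 for Frem2 (0.0452) and 2.28 ± 0.46 for Ift81 (0.0414), a gene of cilium transport that was named after its values were seen. For Adgrl1 the muscle response was the lower, at -1.61 ± 0.29 (0.0381). In the muscle fit by file name the change was 1.24 for Plin4, 3.73 for Frem2, 0.70 for Trp53inp1 and -0.84 for Adgrl1. For Glul it was 1.69, for Plin5 1.82, for Ift81 2.18 and for Slc38a1 0.88. The difference also holds the change in skin, which by file name is not given here. The 9 were looked for only among the genes described, most of which were chosen by their change in muscle. The responses come from different batches, 1 per tissue, so tissue and batch cannot be told apart. No cause was tested.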

How the results depend on the processing

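The count of genes called by record, 1, was 164 by file name, 0 with the replicate block, 0 with library sizes unscaled, 0 without robust estimates, 23 with no filter on low counts, 49 with DESeq2 and 2 in each of 3 fits: limma on log2(TPM + 1), sham and CONV libraries only, and the slow-fibre score as a covariate. It was 0 with CONV 1 as the only CONV library, and 0 to 29 leaving out 1 library at a time. The count stayed at 1 with RLE size factors, voom, the filter at 1 CPM and without the 10 most abundant genes, each time Glul. Without the 5 libraries of disagreeing name it was also 1, Cdkn1a, with 1 sham library assumed to vary like the other groups. Beside the counts of 0, 982 genes with the replicate block and 1563 without scaling had an unadjusted p under 0.05, as did 1371 without robust estimates and 668 with CONV 1 alone. Same-numbered sham and CONV libraries deviated with correlations of 0.213, 0.031 and -0.001, so the numbers were not taken to pair them. By file name the count of 164 was 106 with sham and CONV libraries only, 468 with DESeq2, 1 with the slow-fibre score as a covariate, 1 with CONV 1 as the only CONV library, and 12 to 642 leaving out 1 library at a time. RLE size factors gave 170 and voom 135. The count of 1 for CONV against FLASH ran from 0 to 24 in the fits with 1 library left out. It was 0 without FLASH 2, FLASH 3, CONV 2 or CONV 3, 5 without FLASH 1 and 24 without CONV 1. The 0 genes of the comparison between tissues were 154 by file name, and 0 to 161 leaving out 1 library, with 161 without skin CONV 1. The cause of these moves was not tested. For single genes, the direction turned in 2 cases by record: Bmpr1a at 0.095 in limma on log2(TPM + 1) and Plin5 at -0.033 with CONV 1 as the only CONV library. The covariate and the fits with CONV 1 alone, and the scaling of list medians, were chosen after the data were seen.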
